A study of Homo sapiens with 2 samples.

Results

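The genes described here are 49 interferon-stimulated effectors and regulators, taken by name from the 19775 genes that the array's annotation names. They were read through all probe sets that carry their symbol alone, which gave 94 probe sets for 46 of them. The cells were AGS, an epithelial line from a human gastric adenocarcinoma, and were profiled on 2 one-colour Affymetrix arrays, 1 of control cells and 1 of cells in which galectin-3 was silenced with a double-stranded small interfering RNA. Galectin-3 is a lectin that binds beta-galactosides. The sources used here do not give the treatment of the control cells, the length of silencing or the sequence of the small interfering RNA. Because each group is a single array, no difference has a replicate check and no test was made, and every value is only as precise as these 2 arrays allow.

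Interferon-stimulated genes are switched on when type I or type III interferons bind their receptors. Receptor-bound kinases then activate STAT2, which joins IRF9 in a complex that binds the interferon-stimulated response element (ISRE) of target promoters. Another element, the gamma-activated site (GAS), is known from the response to interferon gamma. Double-stranded RNA sensed inside an epithelial cell can start the same programme through IRF3 and the interferons it induces. The products block viral entry, transcription, translation or release, and several of them amplify the pathway itself.

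Promoter sequences are shown first, because the ISRE is the feature that such genes are known to share. The members were chosen as interferon-stimulated genes, so a high share of ISRE cores can follow from the choice and is no independent result. RefSeq promoters of build GRCh38.p14, each from 250 bases before to 50 bases after a gene's start, were found for 39 of the 49 members, with 53 promoters in all because some genes have several starts. APOL1, APOL6, IFITM2, IRF2, IRF7, MX2, PARP10, PML, TRIM22 and UBA7 were not matched. The core of the ISRE, the letters GAAA followed by any 2 bases and GAAA again, was searched on both strands. It was present in 29 of the 53 member promoters (54.7%), against 3.57% of all 35116 promoters of the same length in the table. By gene, 25 of the 39 members held the core (64.1%), against 4.38% of 27305 genes. The core of the GAS, TTC and GAA with any 3 bases between them, which reads alike on both strands, was present in 12 members (30.8%), against 9.38% of genes, and 8 members held both. Matches of one motif can overlap each other or a match of the other motif. A match is a description of letters and not a binding site.

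The bases that lie just before the start of 8 members follow, 5′ to 3′ on the strand of the gene, with each ISRE core in capitals. They are ordered by the members' log2 ratio of silenced over control signal, from the highest to the lowest, so that the same letters can be seen before genes whose signals differed much, little, or in the other direction. The windows lie at chr1:78649629-78649788 on the forward strand for IFI44, chr14:94110576-94110735 forward for IFI27, chr7:93117980-93118139 on the reverse strand for SAMD9 and chr13:42992242-42992401 reverse for EPSTI1. Those of IFI6 and ISG15 lie at chr1:27672193-27672352 reverse and chr1:1013337-1013496 forward. PARP9, at chr3:122564301-122564341 reverse, is shown with 41 bases only, because the next gene begins at their far end, and TRIM14 lies at chr9:98119223-98119382 reverse.
IFI44: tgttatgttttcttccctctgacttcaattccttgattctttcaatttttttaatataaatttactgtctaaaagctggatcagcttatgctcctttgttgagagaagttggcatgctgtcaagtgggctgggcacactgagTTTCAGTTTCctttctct
IFI27: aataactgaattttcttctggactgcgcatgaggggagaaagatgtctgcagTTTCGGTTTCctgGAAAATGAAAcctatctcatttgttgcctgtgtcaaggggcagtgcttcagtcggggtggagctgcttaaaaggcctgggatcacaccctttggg
SAMD9: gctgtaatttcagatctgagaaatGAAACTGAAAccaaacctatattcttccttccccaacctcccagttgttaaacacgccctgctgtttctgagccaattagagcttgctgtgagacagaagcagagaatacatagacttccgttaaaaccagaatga
EPSTI1: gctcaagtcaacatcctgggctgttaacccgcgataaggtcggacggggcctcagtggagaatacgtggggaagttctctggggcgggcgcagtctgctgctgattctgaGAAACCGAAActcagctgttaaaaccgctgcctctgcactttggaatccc
IFI6: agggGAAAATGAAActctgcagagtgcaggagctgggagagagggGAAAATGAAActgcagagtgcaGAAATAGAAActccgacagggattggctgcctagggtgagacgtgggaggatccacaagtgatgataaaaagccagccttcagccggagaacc
ISG15: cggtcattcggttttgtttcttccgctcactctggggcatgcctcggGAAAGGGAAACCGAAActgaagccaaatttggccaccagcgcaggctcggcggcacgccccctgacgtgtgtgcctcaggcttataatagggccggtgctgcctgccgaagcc
PARP9: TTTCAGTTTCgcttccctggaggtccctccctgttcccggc
TRIM14: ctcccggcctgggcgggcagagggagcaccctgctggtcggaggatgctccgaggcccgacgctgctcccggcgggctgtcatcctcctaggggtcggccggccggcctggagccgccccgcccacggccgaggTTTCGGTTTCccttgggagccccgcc

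In IFI6, a mitochondrial protein that opposes apoptosis, 3 separate cores began 156, 115 and 93 bases before the start. In ISG15, the ubiquitin-like modifier, 2 overlapping cores began 113 and 107 bases before it. In IFI27, a small membrane protein, 2 cores on opposite strands began 108 and 95 bases before the earlier of its 2 starts in the table, and a GAS core overlapped both. The core of PARP9, at chr3:122564332-122564341, is also that of DTX3L, so the stretch printed before PARP9 runs across the start of DTX3L, its oppositely directed neighbour. In TRIM21 the matches lay 17 and 23 bases after the start. Of all genes measured, 3.31% passed 2-fold higher after silencing. Among measured members, 11 of the 23 with an ISRE core passed (median log2 ratio 0.865), as did 6 of the 11 without one (median 1.10). Members past 2-fold were thus found both with and without the core, and the difference between these shares was not tested. XAF1, HELZ2, UBE2L6 and CMPK2 passed 2-fold with neither motif in their windows, and TRIM14 held a core and was lower.

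**Figure D1:**
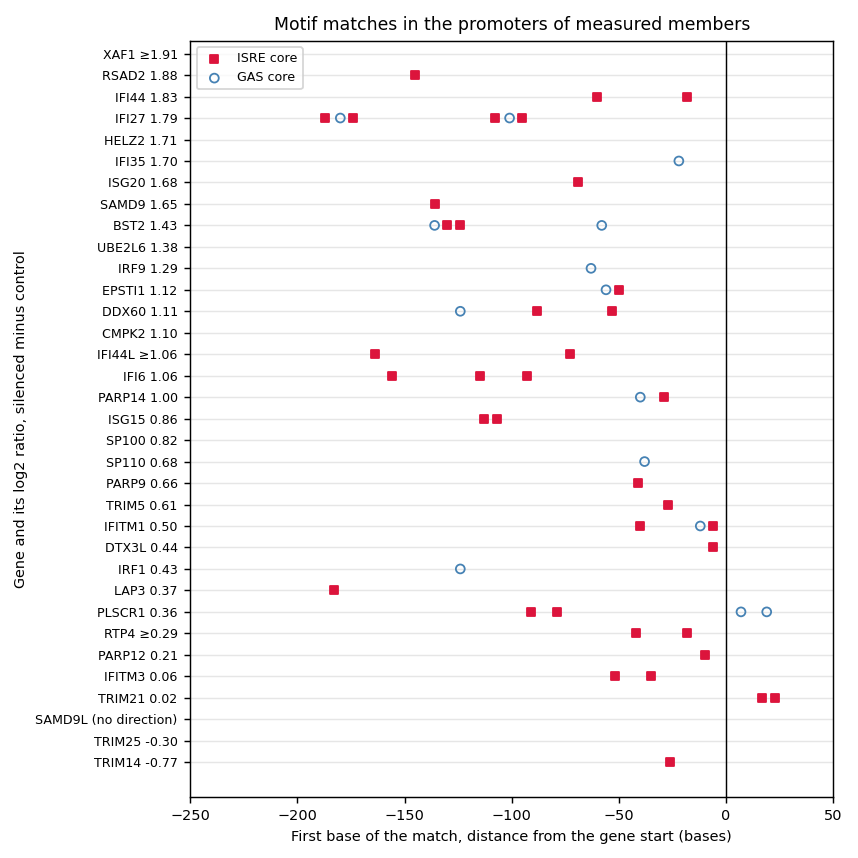
Distance in bases from the gene start (x axis) of each ISRE core (squares) and GAS core (circles) in the promoters of the 34 measured members that have one in the table, ordered from the highest to the lowest log2 ratio, which stands beside each name. Cores lie before genes at both ends of the order, from RSAD2 at 1.88 to TRIM14 at -0.77.

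The signals that follow are MAS5 values in arbitrary units, control array first and silenced array second. A floor of 138.4 for the control and 109.5 for the silenced array, taken from olfactory receptor genes, marks where a signal is no longer told from background. A gene is represented by its brightest probe set, and a gene under the floor on the control array only has a ratio that is a lower bound. LGALS3, which encodes galectin-3, was 7.48-fold lower on the silenced array, with signals of 20206 and 2699.8, and its second probe set did not reach the floor on either array. The epithelial markers EPCAM, KRT8, KRT18, KRT19 and CLDN4 were all above the floor on both arrays, with log2 ratios from 0.04 to 1.08. All 8 leukocyte markers with a probe set, PTPRC among them, failed to reach the floor on either array, with summed signals of 220.5 and 201.3, as were 3 markers of plasmacytoid dendritic cells, with sums of 62.8 and 67.2. Of 5 fibroblast markers 4 reached the floor on neither array and COL1A1 had signals of 816.3 and 1502, and of 3 endothelial markers 2 were under it and PECAM1 had 127.4 and 121. No marker of another cell type was listed at exactly 0. In bulk RNA, fewer cells of a type and less RNA per cell cannot be told apart.

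Of 41 measured, 20 passed 2-fold in the higher direction (48.8%) and 0 in the lower. Among all 10514 genes measured the shares were 3.31% higher and 3.07% lower. The members were chosen with earlier results of these data known, so this contrast is a description and no independent check. At 1.5-fold 25 members were higher and 1 was lower, beside 10.6% and 10.4% of all genes. The median log2 ratio of the members was 0.865, beside -0.02 for all genes measured. A ratio above 0 was seen in 37 members, beside 48.6% of all genes, a ratio below 0 in PML, TRIM25 and TRIM14, and SAMD9L had no settled direction. The sign of small ratios depended on the scaling: IFITM2, IFITM3, IRF2, PARP12 and TRIM21 were below 0 under equal poly-A controls, and PML was above it under equal hybridization controls. Of the 41 measured members 9 lay in the top 1% of all genes by log2 ratio and 21 in the top 5%. Between the members nearest to 2-fold, PARP14 stood just inside with a log2 ratio of 1.003 and ISG15 just outside with 0.865. The remaining 8 members gave no ratio: the probe sets standing for MX1, APOL6, HERC5, HERC6 and PARP10 reached neither floor, and STAT2, TDRD7 and UBA7 had no probe set named for them alone. With the poly-A controls set equal between the arrays, which lowers every silenced signal alike and puts the median of all genes at -0.25, 14 members passed 2-fold higher, beside 1.77% of all genes. With the hybridization controls set equal, which raises every silenced signal alike, 22 did, beside 5.48%. Relative to all genes the members' median was 0.88 with each of these 3 scalings, which is fixed in advance because they shift all genes alike. Where it could change, it was 0.93 with quantile normalization, 0.83 with an offset of 50 and 1.09 without _s_at and _x_at probe sets.

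**Figure D2:**
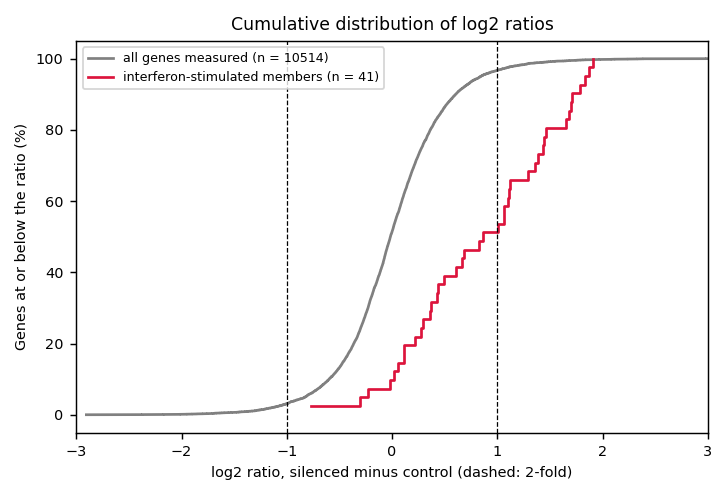
Cumulative share of genes (y axis, %) at or below each log2 ratio of silenced over control signal (x axis), for all 10514 genes measured (grey) and the 41 measured members (red), with 2-fold marked by dashed lines. The members' curve lies to the right, with a median of 0.865 beside -0.02. The members were chosen with earlier results of these data known.

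Antiviral effectors, the largest set, had 8 of 15 measured genes past 2-fold higher, 0 past 2-fold lower and a median log2 ratio of 1.10. Of all genes measured 3.31% were 2-fold higher and 3.07% were 2-fold lower. RSAD2, or viperin, turns cytidine triphosphate into a nucleotide that ends viral RNA chains. Its signals were 359.2 and 1318, a 3.67-fold difference, and its second probe set went from 273.8 to 515.1, with a log2 ratio of 0.91. CMPK2, the nucleotide kinase beside it in the genome, had 714.7 and 1533.9, which is 2.15-fold. Both genes of this pair were thus higher. HELZ2, a helicase that acts as a coactivator of nuclear receptors, was 3.27-fold higher, from 225.4 to 736.6. Its second probe set, under the floor in the control, gave at least 1.82-fold, and the other two were under the floor on both arrays. ISG20, an exonuclease that degrades viral RNA, was 3.21-fold higher, from 238.1 to 764.1. The other ISG20 probe set had 16.4 and 677.8, a difference of at least 4.90-fold.

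SAMD9 restricts poxviruses and lies next to its paralog SAMD9L. SAMD9 had signals of 243.5 and 764.1, 3.14-fold higher, and its dimmer probe set 85.3 and 276.7. SAMD9L was at 32.8 and 118.2, between the unequal floors of the arrays after silencing, so its direction was not settled. MX2, a dynamin-like GTPase that blocks nuclear entry of HIV-1, was 2.72-fold higher, from 559.9 to 1525.1. Its better known paralog MX1, which acts against influenza viruses, gave 48.7 and 79.1 on its only probe set, under the floor on both arrays. BST2, or tetherin, holds budding virions at the cell surface. It was 2.70-fold higher, from 474.2 to 1279.4. DDX60, a helicase linked to RNA sensing, was 2.16-fold higher, from 915.9 to 1980.2.

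The interferon-induced transmembrane proteins, which stop enveloped viruses from fusing with the cell, differed little. IFITM1 had signals of 12561.8 and 17727.2, a 1.41-fold difference. IFITM2 had 4270.5 and 4618.7, and IFITM3 had 13548.6 and 14138.1, so both lay within 1.1-fold. These 2 log2 ratios, 0.11 and 0.06, became -0.12 and -0.17 under equal poly-A controls. Near-identical transcripts of this family can share probes: those of IFITM2 and IFITM3 are of the cross-hybridising _x_at kind, and a further probe set assigned to both IFITM1 and IFITM2 gave a log2 ratio of 0.28. PLSCR1, a phospholipid scramblase, was 1.28-fold higher, from 6461.1 to 8285.7, and another probe set above the floor had a ratio of 0.07 on the log2 scale. The signals of RTP4, a chaperone of receptor transport, were 8.2 and 169.2, at least 1.22-fold higher. APOL1, the trypanosome-killing apolipoprotein, had 115.8 and 167.7, at least 1.21-fold, and its relative APOL6 reached the floor on neither array with any of its 4 probe sets. For these last genes the control signal was at background, so the size of the difference is not known.

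All 5 genes that carry the IFI name, which are not 1 family by sequence, passed 2-fold higher, beside 3.31% of all genes. Their median log2 ratio was 1.70. IFI44, a cytoplasmic protein, was 3.56-fold higher, from 147.3 to 524.6 on its brighter probe set and from 34.7 to 214 on the other, which is at least 1.55-fold. Its neighbour and paralog IFI44L had 36.6 and 289.5, at least 2.09-fold. In both genes a control signal at or near the floor limited how far the ratio could be read. IFI27 was 3.45-fold higher, from 2595.3 to 8966.1. IFI35, a leucine zipper protein, was 3.25-fold higher, from 505.1 to 1642.1. IFI6 was 2.09-fold higher, from 1706.9 to 3568.4, and stood nearest to 2-fold with IFI44L. With a floor set 2 times higher 3 of the 5 passed, because IFI44 and IFI44L then had bounds under 2-fold.

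The ISG15 system couples the ubiquitin-like ISG15 to other proteins through the activating enzyme UBA7, the conjugating enzyme UBE2L6 and the ligase HERC5. ISG15 itself had signals of 13588.2 and 24749.4, a 1.82-fold difference that stopped short of 2-fold. UBE2L6 was 2.61-fold higher, from 1173.9 to 3060.8. Neither HERC5 nor its relative HERC6 was detected: HERC5 gave 24.5 and 22, and HERC6 gave 9.3 and 38.9 on its brighter probe set. UBA7 was read only by probe sets assigned to a microRNA as well, so no ratio is given for the gene. Their signals were 27.5 and 144.1, under the floor in the control only, and 119.8 and 136.2, with no settled direction. Of the 5 genes 2 were therefore measured. USP18, the protease that removes ISG15, was 1.76-fold higher, from 644.7 to 1137.1; it is no member and was picked with its value known.

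**Figure D3:**
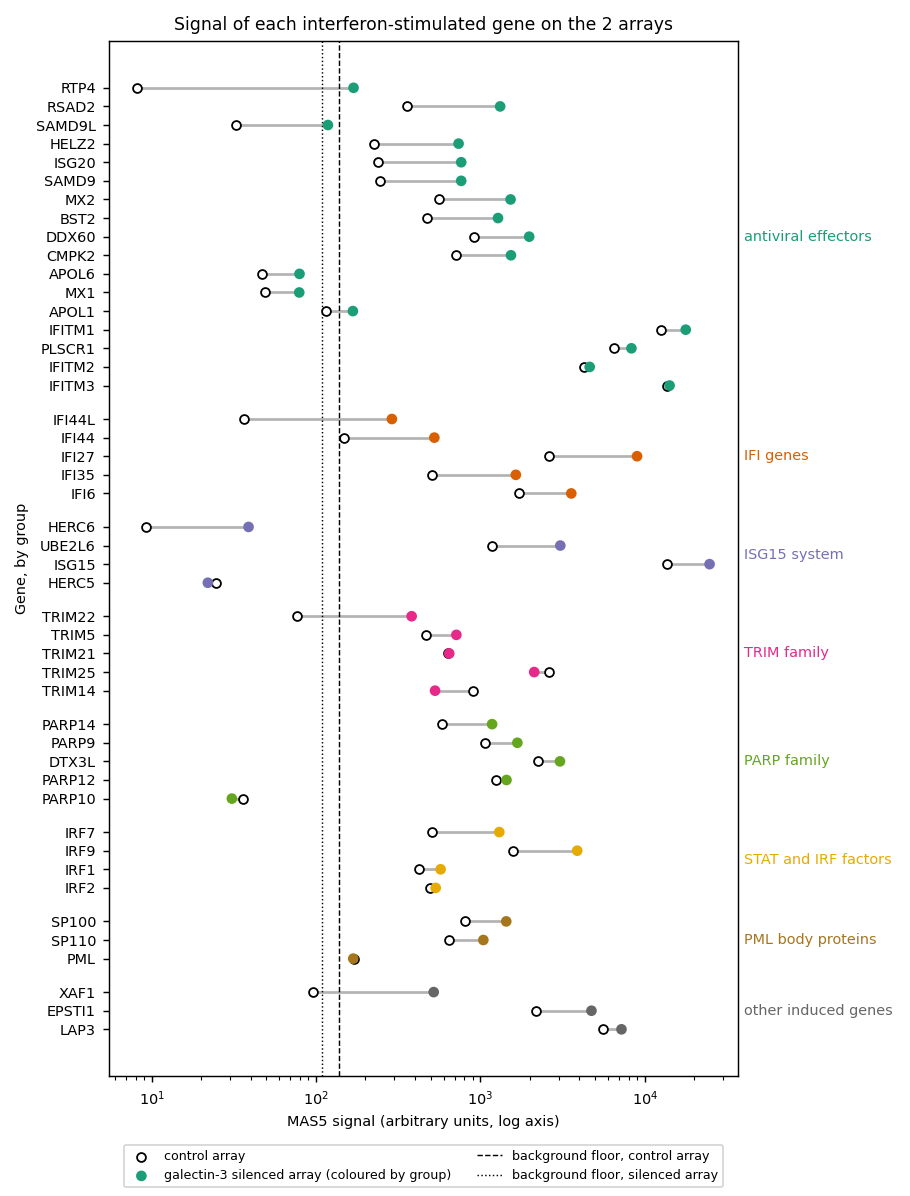
MAS5 signal (x axis, log scale) of each of the 46 members with a probe set of their own, on the control array (open circles) and the silenced array (filled circles, coloured by group), with the background floors of 138.4 and 109.5 as vertical lines. Filled circles lie to the right in most rows, with TRIM14 and TRIM25 the clearest exceptions among the genes above the floors.

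The TRIM family, named for a tripartite motif, was split. TRIM22, a restriction factor of retroviruses and influenza viruses, had signals of 76.5 and 381.8, at least 2.76-fold higher. TRIM5, which binds incoming retroviral capsids and lies in the same gene cluster, was 1.53-fold higher, from 467.5 to 714.1. TRIM21, an antibody receptor in the cytosol, had 639 and 646.3. TRIM25, the ligase known for activating the RNA sensor RIG-I, was 1.23-fold lower, from 2617.1 to 2123.8, with -0.22 on the log2 scale for its other probe set. TRIM14, an adaptor of antiviral signalling at mitochondria, was 1.70-fold lower, from 900.9 to 529.8, and its 2 other probe sets above the floor gave -0.40 and -0.10. All 3 were thus lower, but by unequal amounts. The family's median was 0.02 and became -0.22 under equal poly-A controls, or 0.03 relative to all genes. Of 8 other TRIM genes measured, which are not members, TRIM8 was 2.68-fold higher, from 1329.9 to 3559.4, and no other passed 2-fold. So short a list cannot be told apart from the 3.31% of all genes that were 2-fold higher. The value of TRIM8 comes from an _s_at probe set: the median of its probe sets gave a log2 ratio of 0.57, and without _s_at and _x_at probe sets it had no ratio.

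The PARP family members of this set add ADP-ribose to proteins and are known to be induced by interferon. PARP14 went from 587.7 to 1177.7, a log2 ratio of 1.003 that just passed the threshold, and was under 2-fold with quantile normalization, with an offset and with the poly-A controls set equal. PARP9 and its partner DTX3L, a ubiquitin ligase, form a complex and share the ISRE core shown above. PARP9 had 1060.8 and 1677.9, a 1.58-fold difference, with a log2 ratio of 0.09 on its second probe set. DTX3L had 2245.4 and 3046.4, a 1.36-fold difference. PARP12, a zinc-finger member, had 1242.4 and 1441, a log2 ratio of 0.21 that became -0.02 under equal poly-A controls. All 4 measured genes of the set were on the higher side, with a median log2 ratio of 0.55. PARP10 reached the floor on neither array by the probe set that stood for it, but another, of the cross-hybridising kind, went from 101.7 to 286.1, at least 2.07-fold. Of 8 other PARP genes measured, 0 passed 2-fold in either direction, beside 3.31% higher and 3.07% lower of all genes, with a median of 0.08.

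Among the transcription factors, 2 of 4 measured were at least 2-fold higher, beside 3.31% of all genes. IRF7, the factor that amplifies interferon alpha expression, was 2.57-fold higher, from 507.7 to 1302.8. IRF9, the DNA-binding part of the complex that recognises the ISRE, was 2.45-fold higher, from 1581.1 to 3878.4. A probe set assigned to both IRF9 and RNF31 stayed near level, at 462.3 and 460.2. IRF1, an activator best known from the interferon gamma response, had 425.2 and 572.8 and was 1.35-fold higher, and its second probe set gave 0.47 beside 0.43 on the log2 scale. IRF2, which opposes IRF1, had 493.7 and 534.6, a log2 ratio of 0.11 that became -0.12 under equal poly-A controls. IRF7 and IRF9 thus stood apart from IRF1 and IRF2 in the size of the difference, which was not tested.

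PML and SP100 build nuclear bodies that silence incoming viral genomes, and SP110 is a relative of SP100. SP100 was 1.77-fold higher, from 811.2 to 1435.7, and its 2 other probe sets that reached both floors gave log2 ratios of 0.87 and 1.17. SP110 was 1.61-fold higher, from 648.5 to 1041.9, and all 5 of its probe sets were higher, by 0.37 to 1.01 on the log2 scale. All 5 were of the _s_at or the cross-hybridising _x_at kind, so SP110 had no ratio without these. PML had 170.7 and 168.5 on the probe set that stood for it, but the 4 that reached both floors ran from -0.02 to 1.004. The gene's ratio therefore depends on the probe set, and the other 3 of these were of the cross-hybridising kind.

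Of the other induced genes XAF1, which antagonises an inhibitor of caspases, had the highest ratio of all members as read, although it is a bound. Its signals were 95.4 and 520, at least 3.76-fold higher, and on a dimmer probe set 10.1 and 192.3, at least 1.39-fold. EPSTI1, first described in breast cancer cells grown with stromal fibroblasts, was 2.17-fold higher, from 2179.5 to 4734.5, and its other probe set at least 1.69-fold. LAP3, a leucine aminopeptidase, had 5567.7 and 7208.5, a 1.29-fold difference.

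Probe sets of one gene mostly went the same way. Counting each probe set by itself, 25 of the 68 above the floor on at least 1 array passed 2-fold higher (36.8%) and 0 passed 2-fold lower, beside 3.12% and 3.09% of all such probe sets on the array. In 9 members 2 or more probe sets reached both floors, and in 8 of these all had a ratio of the same sign, PML being the exception. In RSAD2, SP100, SP110 and PML at least 1 of these probe sets passed 2-fold, and in none of the 9 did all of them. Between probe sets of the same gene the log2 ratio had an SD of 0.34 over these 9 members, beside 0.32 over 4728 genes of the whole array. It says nothing of the spread between cultures.

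**Figure D4:**
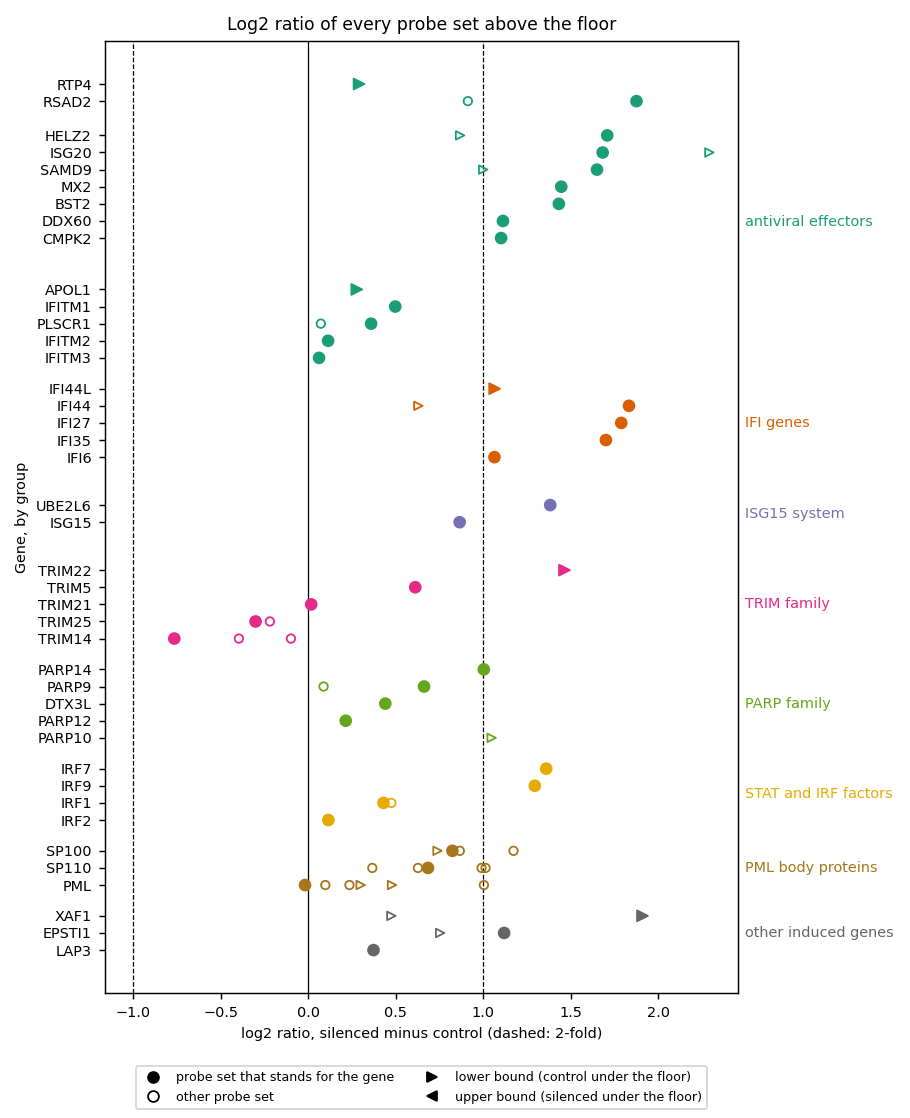
Log2 ratio of silenced over control signal (x axis) for every member probe set above the floor with a settled direction, by gene and group, with filled symbols for the probe set that stands for the gene and triangles for bounds. Most symbols lie right of 0, and those of TRIM14 and TRIM25 lie left of it.

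Members that are direct neighbours in the genome, judged from the order of protein-coding genes in RefSeq, formed 8 pairs, and both genes were measured in 6. Both were at least 2-fold higher in the pairs of IFI44L with IFI44 and CMPK2 with RSAD2. Neither was in IFITM2 with IFITM1, IFITM1 with IFITM3 and PARP9 with DTX3L. In SAMD9 with SAMD9L only the first passed, and its neighbour had no settled direction.

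The rest of the interferon pathway was read from other lists, which together had 80 genes with a ratio. In these lists 20 genes passed 2-fold higher (25.0%, beside 3.31% of all genes measured) and 1 passed 2-fold lower, beside 3.07% of all genes. Among the interferons themselves, IFNL1, a type III interferon, was 2.33-fold higher, from 257.4 to 599.8, and fell just short of 2-fold under equal poly-A controls. IFNL2, singled out after its value was seen, had 32.9 and 373.8, at least 2.70-fold higher, on a probe set that its near-identical relative IFNL3 may share. IFNB1, also singled out, had 4.4 and 114.8, between the unequal floors after silencing, so its direction was not settled. Among receptors and kinases 2 of 8 measured were 2-fold higher, IFNGR2 by 2.11-fold and IFNGR1 by 2.05-fold, both chains of the interferon gamma receptor, and neither passed with the poly-A controls set equal. Without _s_at and _x_at probe sets IFNGR1 had a bound of 0.60. IFNLR1, the specific receptor chain for type III interferons, also singled out, was under the floor on both arrays, at 9.5 and 7.9.

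Among sensors of viral nucleic acid 4 of 8 measured were 2-fold higher, beside 3.31% of all genes. RIGI, which encodes RIG-I, was 2.61-fold and IFIH1, which encodes MDA5, 2.41-fold higher. The median of its probe sets put IFIH1 at a log2 ratio of 0.96. In the OAS and IFIT families 6 of 8 passed, led by OAS1 at 5.21-fold and IFIT2 at 4.22-fold. OAS3, named here with its value known, was lower on the probe set that stood for it, from 1513.0 to 757.4, a log2 ratio of -0.998. That value passed 2-fold lower with quantile normalization and under equal poly-A controls. The median of the probe sets of OAS3 was 0.32, on the higher side, so its direction depends on the probe set. The chemokines CXCL11 and CXCL10, which draw activated T cells, were 3.99-fold and 2.46-fold higher, and GBP3, a guanylate-binding protein, 2.22-fold. Of these 3, GBP3 alone missed 2-fold under equal poly-A controls, at a log2 ratio of 0.92. Among genes of negative feedback 0 of 7 were 2-fold higher, a list too short to be told apart from the 3.31% of all genes. SOCS3, an inhibitor of receptor kinases singled out after its value was seen, had 230.5 and 68.7, at least 2.10-fold lower. That bound fell short of 2-fold with the lowess curve and under equal hybridization controls, and a floor 2 times higher left SOCS3 with no ratio. These genes share the 2 arrays with the members, so they are no independent support for them.

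**Figure D5:**
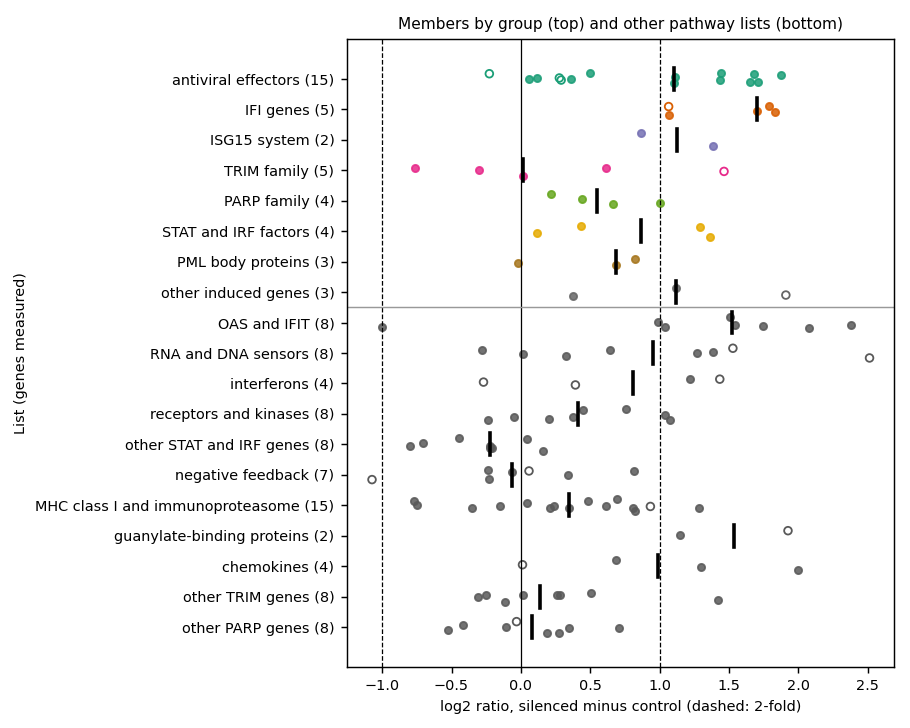
Log2 ratio of silenced over control signal (x axis) of each measured gene, by member group (top) and other pathway list (bottom), with filled circles for genes above the floor on both arrays, open circles for bounds or no settled direction, and bars for medians. The member medians run from 0.02 for the TRIM family to 1.70 for the IFI genes.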

How the data were processed

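Biotin-labelled cRNA from Trizol-extracted RNA was hybridised to 1 array per group, per the labels' protocols. The authors deposited linear signal intensity values, for which the submitters' processing notes name MAS5; the sources used here give no version or scaling target. Both arrays have a 2% trimmed mean of 500.07, so scaling hides any change in total RNA. Probe sets with 1 symbol in the platform annotation named genes. The floor was the 95th percentile of 135 olfactory receptor probe sets on each array, and signals under it were raised to it. The brightest probe set by mean log2 signal stood for a gene, leaving out _x_at where another existed. A log2 ratio of 1 (2-fold) was the rule of size. Alternatives changed the scaling, floor, offset and probe set. All 49 members are named, and of each other list the 2 genes past 2-fold with the largest ratios above the floor on both arrays. Promoters came from RefSeq, GRCh38.p14. Python 3.11.15 and pandas 2.3.3 were used, and the procedure was tested on simulated data. Members and lists were chosen with earlier results of these data known.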

Additional observations from a re-analysis of the deposited data

How the results depend on the processing

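Between 14 and 23 members were at least 2-fold higher under 10 alternative scalings, floors and probe set choices, against 20 as reported. The 14 came under equal poly-A controls, beside 1.77% of all genes. The 23 came without a floor, where 46 members have a ratio and 12.5% of all genes passed, against 3.31% as reported. At 1.5-fold as the rule of size 25 were higher and 1, TRIM14, was lower, against 0 at 2-fold. The median log2 ratio ran from 0.63 (poly-A controls set equal) to 1.06 (without _s_at and _x_at probe sets, 26 members measured). Of the 20 members 11 passed 2-fold in every alternative that gave them a value. CMPK2, DDX60, IFI6, IFI44L, EPSTI1 and PARP14 fell short with the poly-A controls set equal, and IFI44, IFI44L, TRIM22 and XAF1 with a floor 2 times higher, where they have lower bounds. IFI44 also fell short without _s_at and _x_at probe sets, at a bound of 0.63, and EPSTI1 with the median of its probe sets. ISG15 and SP100 reached 2-fold with the hybridization controls set equal, and RTP4 and SAMD9L without a floor or with an offset of 50, with the control signal at background, RTP4 also with the array median as the floor. No paired analysis was possible because each group has 1 array. Low signals limit the ratios: 26 of the 94 probe sets were under the floor on both arrays.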

Other observations

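Genes of antigen presentation are also induced by interferons. Of 15 measured genes of MHC class I and the immunoproteasome 1 (6.67%, beside 3.31% of all genes) was at least 2-fold higher, PSMB9, a proteasome subunit, from 319.7 to 777.6, with a list median of 0.34. HLA-B and HLA-C, singled out after their values were seen, were 1.77-fold and 1.75-fold higher, but near-identical HLA transcripts can share probes. The peptidases ERAP1 and ERAP2, which trim peptides for MHC class I, were also singled out and were 1.70-fold and 1.68-fold lower, from 480.8 to 282.2 and from 611.9 to 363.4.

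Other genes listed with the STAT and IRF factors did not follow IRF7 and IRF9 past 2-fold. The list also holds IRF2BP1 and IRF2BP2, which are named for binding IRF2 and are not IRF factors themselves. Of 8 measured, 0 were at least 2-fold higher or lower, beside 3.31% and 3.07% of all genes, with a median log2 ratio of -0.22. STAT3, singled out after its value was seen, had the lowest ratio of them, 1.74-fold lower, from 3008.6 to 1727.3.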
